A study of Mus musculus with 2 samples.

Results

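The 41 genes described here mark phases of the cell cycle. They form a list of 20 mitotic genes, a list of 14 S phase genes, the 2 E-type cyclins Ccne1 and Ccne2, and a group of 5 genes of G1, which holds the D-type cyclins Ccnd1, Ccnd2 and Ccnd3 and the kinases Cdk4 and Cdk6. The rule that lists them by name uses no measured value, and all 41 were found among the 31053 genes counted. The cells came from mouse tumours, with the strain labelled as "NGS mouse". The pool held 3 samples treated with an ACSS2 inhibitor (ACSS2i) and 3 samples given vehicle, with 4000 to 6000 live cells of each sample loaded together on 1 lane of a droplet platform. ACSS2 is the enzyme that makes acetyl-CoA from acetate. Antibody tags separate the 6 samples (U2, U3 and U4, then D0, D1 and D4), but no label ties a tag to a treatment, and the design text names Bmal1 status, which no label of the pool gives. The comparisons below are therefore between cell classes and among barcodes of 1 class, with the tags as 6 samples of unknown arm, and no comparison of the arms was possible.

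A cell that divides copies its DNA in S phase and separates the copies in mitosis, and different genes are transcribed for each step. D-type cyclins with Cdk4 or Cdk6 act in G1 and inactivate the retinoblastoma protein, which frees E2F factors to turn on E-type cyclins and genes for DNA replication. Genes of mitosis are transcribed later, in G2 and mitosis, and many carry a CCAAT box and an element called CHR in their promoters.

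Cells were put into classes by the UMIs (unique molecular identifiers, each 1 captured RNA molecule) of a few marker genes. The keratin-positive class, meant to hold tumour cells, had 3 or more UMIs of Krt8 and Krt18 and none of Ptprc. The NK class had 1 or more of Ncr1 and Klrb1c and no Cd3 UMI, the T class 2 or more of Cd3d, Cd3e and Cd3g, and the macrophage class 3 or more of C1qa, C1qb and C1qc. These rules gave 5212 keratin-positive barcodes, 121 NK, 730 T and 396 macrophage barcodes out of 7919 kept, and no barcode was used in more than 1 class. Median UMIs per barcode were 25137.5 in keratin-positive, 3359 in NK, 1647.5 in T and 4326.5 in macrophage barcodes. The keratin-positive class carried Sox9 at 760 and Hmga2 at 548 CPM (counts per 1000000 UMIs), but Epcam, Cdh1, Krt7 and Krt19 were all under 1 CPM, and the fibroblast marker Dcn reached 2580 CPM. An epithelial identity therefore rests on Krt8 and Krt18, which the rule used, and the class is called by its rule. Some immune barcodes also held 3 or more keratin UMIs: 8 NK barcodes with 32.6% of that class's UMIs, 29 T barcodes with 33.1% and 39 macrophage barcodes with 40.3%. These are called keratin-bearing, and immune barcodes with fewer than 3 keratin UMIs stay in. Single-gene levels of the immune classes are therefore given without keratin-bearing barcodes unless stated. In the remaining barcodes the summed CPM of Krt8, Krt18, Krt7, Epcam, Sox9 and Hmga2, relative to the keratin-positive class, was 2.98% in NK. It was 6.24% in T and 3.74% in macrophage barcodes. The part that mixed droplets and free RNA play in the results was not tested.

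Mitotic barcodes were most frequent in the keratin-positive class when all barcodes were thinned to the same depth. After thinning to 1000 UMIs, 2 or more UMIs of the 20 mitotic genes were found in 23.4% of keratin-positive barcodes (95% exact binomial interval 22.2% to 24.5%, 1214 of 5197). The share was 17.6% in NK barcodes (11.3% to 25.7%, 21 of 119), 12.8% in T barcodes (10.4% to 15.6%, 88 of 685) and 10.5% in macrophage barcodes (7.65% to 13.99%, 41 of 390). The keratin-positive interval stood above those of T and macrophage barcodes and overlapped that of NK barcodes. The 100 barcodes with B cell markers had a median depth of 1091.5 UMIs. Of the 64 with 1000 or more UMIs, 6 reached the same limit (9.38%, 3.52% to 19.3%). This interval overlapped those of NK, T and macrophage barcodes. Tag U3 held 89 of the 100 B-marked barcodes, and whether their mitotic UMIs come from free RNA was not tested. Without thinning the shares were 65.5% in keratin-positive, 37.2% in NK, 22.2% in T and 27.0% in macrophage barcodes, with the depths of the classes unequal as given above. All intervals given here cover counting error only.

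The order of keratin-positive and T barcodes depended on which T barcodes were counted. Only 248 T barcodes, or 34.0% of the class, held 2000 or more UMIs. Thinned to the same 1000 UMIs, these were mitotic in 23.8%, against 23.1% of keratin-positive barcodes of that depth. T barcodes of 1000 or more but under 2000 UMIs were mitotic in 6.64% (29 of 437). The gap between the classes was thus seen with the shallow T barcodes counted and not among the deeper ones. Thinned to 2000 UMIs, the share was 28.9% in keratin-positive, 22.8% in NK, 33.9% in T and 16.1% in macrophage barcodes. Mitotic T barcodes had a median of 2822 UMIs before thinning, against 1643 UMIs in the other T barcodes. The part of depth in this order was not tested.

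S phase barcodes did not follow the same order. At 1000 UMIs, 2 or more UMIs of the 14 S phase genes were found in 7.97% of keratin-positive (7.24% to 8.74%), 6.72% of NK (2.95% to 12.8%), 9.34% of T (7.27% to 11.8%) and 7.44% of macrophage barcodes (5.04% to 10.5%). The 4 intervals overlapped, and that of the B-marked barcodes (7.81%, 2.59% to 17.3%) covered all 4 shares. Among barcodes of 2000 or more UMIs the T share was 20.6% (15.7% to 26.1%), against 7.89% (7.17% to 8.66%) in keratin-positive barcodes, still at 1000 UMIs each.

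**Figure D1:**
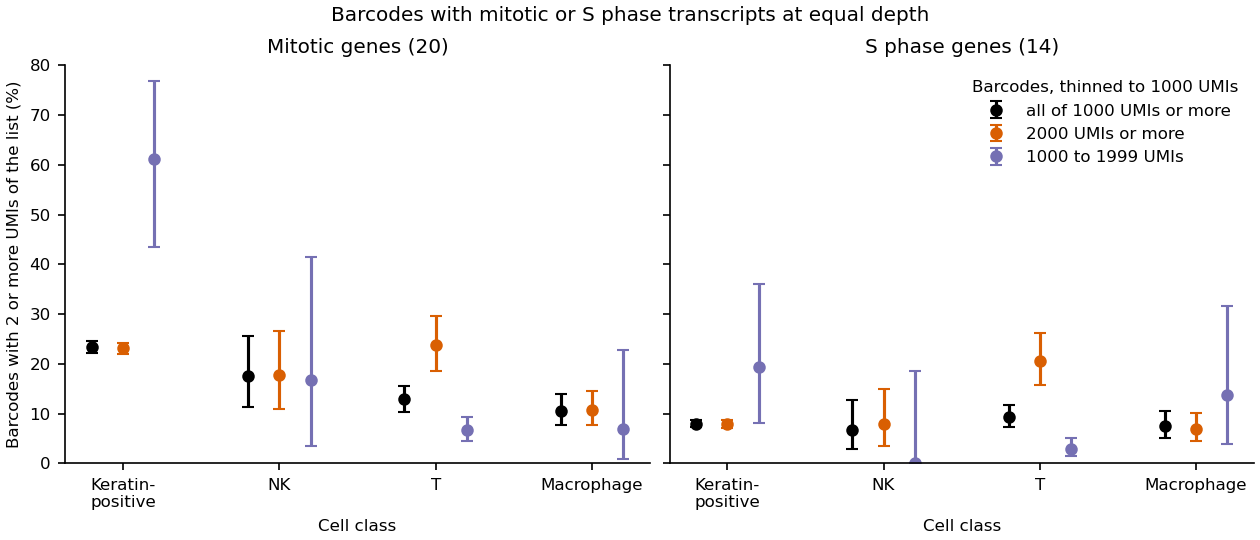
Percent of barcodes with 2 or more mitotic (left) or S phase (right) UMIs after thinning to 1000 UMIs, for keratin-positive, NK, T and macrophage barcodes, with exact binomial 95% intervals. Black points hold all barcodes of 1000 UMIs or more, orange those of 2000 or more and violet the shallower rest. The black mitotic share is 23.4% in keratin-positive and 10.5% in macrophage barcodes, and the orange T point lies at 23.8% for mitotic and 20.6% for S phase genes.

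The mitotic share of keratin-positive barcodes varied among the 6 tags. It was 23.3% in U2, 22.3% in U3, 24.5% in U4, 29.4% in D0, 29.97% in D1 and 18.4% in D4. D1 (27.2% to 32.9%) stood above U2 (21.3% to 25.4%) and D4 (12.7% to 25.3%) by its interval, and the other neighbours in this order overlapped. The 1850 keratin-positive barcodes with no tag had a share of 19.6%. In T barcodes the share was 17.5% in U2, 6.86% in U3, 14.8% in U4, 13.8% in D0, 15.2% in D1 and 6.67% in D4, with 30 to 204 barcodes a tag. In each of the 6 tags the keratin-positive share was above the T share, without a split of T barcodes by depth. Macrophages had at least 20 barcodes of this depth in 4 tags, with shares of 15.2% in U2, 8.70% in U4, 6.25% in D0 and 10.2% in D1. NK barcodes had them in 3 tags, with 19.4% in U2, 16.7% in D0 and 19.05% in D1. S phase shares of keratin-positive barcodes lay between 6.85% in U2 and 11.04% in D0, and those of T barcodes between 4.41% in U3 and 16.7% in D4. The S share of keratin-positive barcodes was above that of T barcodes in U3, U4 and D1 and below it in U2, D0 and D4.

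**Figure D2:**
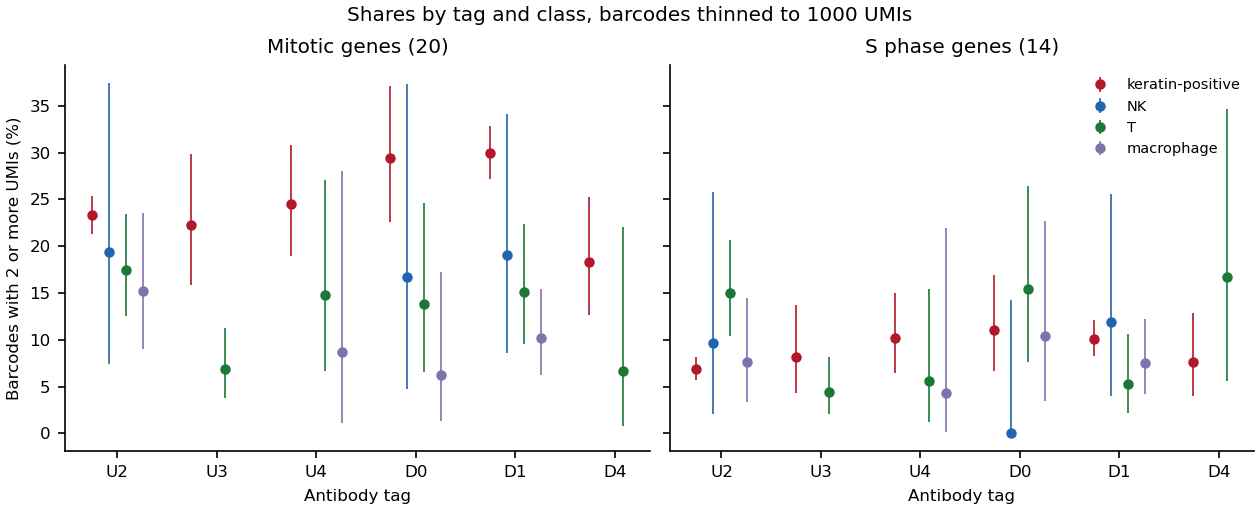
Mitotic (left) and S phase (right) share at 1000 UMIs in each antibody tag, for each class with at least 20 barcodes there, with exact binomial 95% intervals. Keratin-positive mitotic shares lie between 18.4% (D4) and 29.97% (D1) and T mitotic shares between 6.67% (D4) and 17.5% (U2), while the S shares of these classes change order from tag to tag.

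Gene levels were then compared as UMIs summed over a class, in CPM. A gene was counted as higher or lower where the exact Poisson 95% intervals of both classes stood apart, and the comparisons of keratin-positive barcodes with NK, T and macrophage barcodes share the keratin-positive barcodes. The counts take the classes as ruled, keratin-bearing immune barcodes included. Over NK barcodes, 10 of the 41 genes were higher and 7 lower, against 14.8% higher and 14.3% lower among all genes tested. Over T barcodes 13 were higher and 11 lower, against 19.9% and 24.1% of all genes. Over macrophages 30 were higher and none lower, against 22.8% and 21.1% of all genes. Between NK and T barcodes 1 gene was higher and 1 lower, against 3.76% and 6.41% of all genes. T over macrophages gave 22 higher and 1 lower, against 17.6% and 14.2%. The count over macrophages stood far above its background, and the counts over NK and T barcodes mixed both directions. With a ratio past 1.5 asked for as well, 9 were higher and 4 lower over NK (13.0% and 13.0% of all genes), 7 and 8 over T (14.4% and 20.2%), and 28 and none over macrophages (15.6% and 17.0%).

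In counts by list, of the 20 mitotic genes, 8 were higher and 2 lower over NK barcodes, 11 higher and 2 lower over T barcodes, and 19 higher over macrophages. Of the 14 S phase genes, none was higher and 4 lower over NK barcodes, none higher and 5 lower over T barcodes, and 7 higher over macrophages. The median ratio of the mitotic list was 1.53 over NK, 1.32 over T and 2.30 over macrophage barcodes, where the median of all genes tested was 0.86, 0.89 and 0.99, with 0.5 UMIs added to each count. The S list had medians of 0.70, 0.79 and 1.35 in the same order. The counts were also made without the keratin-bearing immune barcodes. Over all 41 genes they were 11 higher and 7 lower over NK (17.3% and 14.9% of all genes). Over T they were 15 and 12 (23.2% and 25.2%), and over macrophages 25 and 2 (25% and 22.1% of all genes). The S phase genes then gave 3 higher and 2 lower over macrophages, against 18 higher and none lower of the mitotic genes, and T over macrophages gave 14 higher and 1 lower of the 41. The keratin-positive over T counts also changed with the barcodes and tags used: with barcodes of 1000 or more genes alone, 2 genes were higher and 20 lower. Without tag U2 20 were higher and 6 lower, and without tag D1 6 were higher. Leaving out 1 tag at a time gave 6 to 12 lower. The share of all genes was not computed for T over macrophages without keratin-bearing barcodes. It was not computed with 1000 or more genes or with a tag left out either, so these counts have no background beside them.

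The classes were also compared over the tags, with UMIs summed per tag and class in edgeR's quasi-likelihood test, the tag as a block and Benjamini-Hochberg adjustment over all genes at 0.05. This test takes its error from the spread between tags, pooled over genes, so a p-value does not rest on a gene's own spread alone. It was added after the data were seen. With the classes as ruled, 10 of the 41 genes were higher and 1 lower over NK in 3 tags (16.5% and 10.2% of all genes), 10 and 5 over T in 6 tags (21.3% and 21.1%), and 29 and none over macrophages in 5 tags (21.2% and 24.6%). With keratin-bearing immune barcodes set aside, the counts were 14 and 2 over NK (23.9% and 12.8%), 14 and 9 over T (30.6% and 24.6%), and 23 and 1 over macrophages in 4 tags (30% and 24.6%). Over T these held 12 mitotic genes higher and 1 lower, and 5 S phase genes lower and none higher. Ccnd1 had a log2 ratio of 3.83 ± 0.22 (SE) over T with an adjusted p of 8.69e-49, and Cdk4 one of 1.89 ± 0.20 (adjusted p = 3.36e-20). As ruled, Ccnd1 over T missed the threshold, at 1.92 ± 0.60 with an adjusted p of 0.0507. The median log2 ratio of all genes was 0.39 over NK, 0.12 over T and 0.13 over macrophages with those barcodes set aside.

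With keratin-bearing T barcodes set aside, 13 of the 20 mitotic genes were higher than in T barcodes by their intervals. Cdk1, the mitotic cyclin-dependent kinase, had a median of 142 CPM over the 6 tags in keratin-positive barcodes (126 to 199), against 43.0 CPM in T barcodes (31.0 to 74.4). The tags of the classes did not overlap, and the ratio over all barcodes was 2.98 (2.36 to 3.81), or 1.89 as ruled. Over tags its log2 ratio was 1.76 ± 0.23 (edgeR, adjusted p = 7.82e-14). Ube2c, an enzyme that loads ubiquitin for the anaphase-promoting complex, had 193 to 299 CPM by tag in keratin-positive barcodes with a median of 248, against 18.6 to 124 CPM with a median of 107 in T barcodes, a ratio of 2.18 (1.86 to 2.58). Cdc20, which activates that complex, reached 30.9 to 40.4 CPM in keratin-positive and 15 to 23.6 CPM in T barcodes by tag, a ratio of 1.68 (1.15 to 2.55). These 3 genes were above T barcodes in 6 of 6 tags. In these T barcodes 3 UMIs amounted to 55.8 CPM in D4, 23.6 CPM in D0 and 23.3 CPM in U4. The Cdc20 values of those tags thus rest on 3 or fewer T UMIs, and the lowest Ube2c value rests on fewer than 3. Tpx2, a spindle assembly factor, and Cenpf, a kinetochore protein, had ratios of 2.03 (1.63 to 2.56) and 2.11 (1.75 to 2.58) over T barcodes. With barcodes of 1000 or more genes alone, and keratin-bearing T barcodes left in, the ratios over T of Cdk1 and Ube2c were 1.18 and 1.10, that of Cdc20 was 0.9997, that of Tpx2 0.91 and that of Cenpf 0.99.

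Mki67 and Cenpa were lower than in T barcodes by their intervals. Mki67, which encodes the Ki-67 protein that coats mitotic chromosomes and is widely used as a proliferation marker, had a median of 88.7 CPM by tag in keratin-positive barcodes (71.3 to 100.5), against 202 CPM in T barcodes (54.2 to 264). The T level was higher in 5 tags and lower in U3, and the ratio was 0.50 (0.44 to 0.57). The log2 ratio over tags was -0.80 ± 0.19 (edgeR, adjusted p = 9.11e-05). Over NK barcodes the ratio was 0.55 (0.43 to 0.71) and over macrophages 0.86 (0.74 to 1.01). Top2a, the topoisomerase that untangles replicated DNA, had intervals that included 1, with ratios of 0.92 (0.75 to 1.14) over NK and 1.06 (0.94 to 1.20) over T. Mki67 was thus lower than in T barcodes while 13 of the 20 mitotic genes were higher. Cenpa, the histone variant of centromeres, had a ratio of 0.59 (0.48 to 0.74) over NK and 0.75 (0.66 to 0.86) over T. Over tags Cenpa did not pass, with log2 ratios of -0.45 ± 0.23 over NK and -0.19 ± 0.19 over T (edgeR, adjusted p = 0.125 and 0.410), and Mki67 over NK did not either (adjusted p = 0.0694).

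The mitotic list summed to 1810 CPM in keratin-positive, 1404 in NK, 1323 in T and 829 CPM in macrophage barcodes, the lowest of the 4. Ccnb1, the B-type cyclin partner of Cdk1, was at 62.5 CPM in keratin-positive barcodes, 18.7 in NK, 26.9 in T and 9.83 CPM in macrophage barcodes. The keratin-positive level was 6.36 times that of macrophages (3.91 to 11.1) on 16 macrophage UMIs, and 3.097 times as ruled. Prc1, which bundles the midzone of the spindle, was 3.91 times (3.06 to 5.06) and Cdc20 5.22 times (2.84 to 10.9) the macrophage level. Each of these 3 was above the macrophage level in 4 of 4 tags. Aurkb, the kinase of the chromosomal passenger complex, was not: its ratio over macrophages was 1.04 (0.74 to 1.51). With the 39 keratin-bearing macrophage barcodes left in, Aurkb was among the genes called higher, at 1.60 (1.15 to 2.28).

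**Figure D3:**
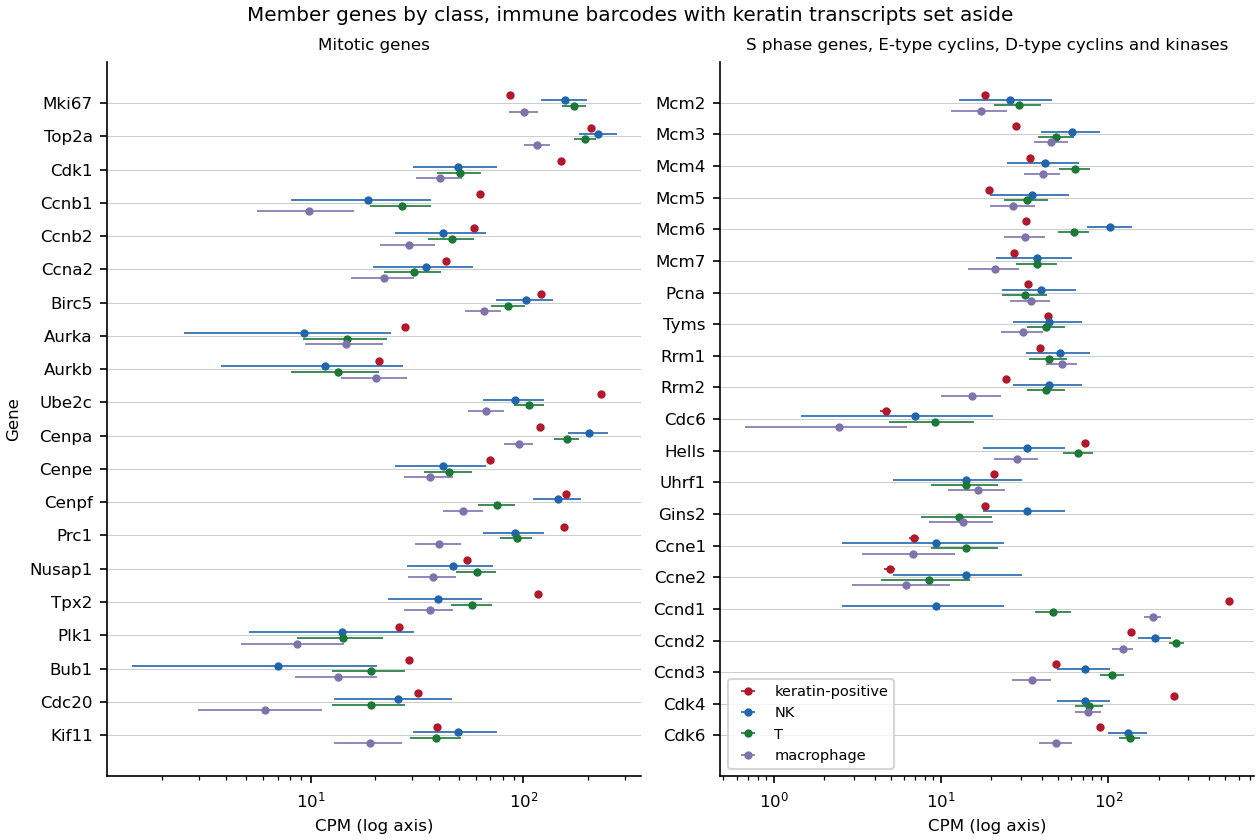
CPM of each of the 41 genes, on log axes, in keratin-positive, NK, T and macrophage barcodes, with immune barcodes of 3 or more keratin UMIs set aside. Lines are exact Poisson 95% intervals, which for keratin-positive barcodes are mostly narrower than the point. Most mitotic genes are highest in keratin-positive barcodes, Mki67 and Cenpa lie below NK and T barcodes there, and Ccnd1 and Cdk4 lie far to the right of the immune classes.

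Cenpa UMIs in T and NK barcodes lay less often beside another mitotic UMI than those of the other mitotic genes did, and Cenpa was singled out after its values were seen. At 1000 UMIs, 87.4% of Cenpa UMIs in keratin-positive barcodes lay in a barcode with a UMI of another mitotic gene (522 UMIs), against 35.1% in T barcodes (25.6% to 45.4%, 97 UMIs). The other 19 mitotic genes ranged over 66.7% to 100% in T barcodes with a median of 84.6%. By tag, the Cenpa percent in T barcodes was 63.6 in U2, 22.9 in U3, 60.0 in U4, 25 in D0, 20 in D1 and 0 in D4, from 2 to 35 UMIs each, while the summed other genes lay between 71.4% and 94.0%. Cenpa was the lower one in 6 of 6 tags. In NK barcodes Cenpa was at 36.4% (22 UMIs), where the others ranged over 66.7% to 100%. In macrophages it was at 41.7% (25.5% to 59.2%, 36 UMIs), where the others ranged over 33.3% to 100% with a median of 85.7%. The 33.3% was that of Cdk1 on 3 UMIs, and the next lowest was Aurkb at 62.5% on 8 UMIs. In B-marked barcodes Cenpa was at 27.3% on 11 UMIs, with the others at 0 to 100%. Among barcodes of 1000 or more genes, keratin-bearing T barcodes included, the T value was 68.4%.

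The S phase genes with lower levels in keratin-positive than in T barcodes included Mcm3, Mcm4, Mcm5 and Mcm6. Mcm2 to Mcm7 encode the 6 subunits of the helicase that opens DNA at replication forks. Mcm6 had a median of 30.9 CPM by tag in keratin-positive barcodes (27.4 to 37.5), 94.5 CPM in NK (74.5 to 101 in 3 tags), 48.9 CPM in T (18.6 to 89.5) and 36.0 CPM in macrophage barcodes (22.5 to 42.7 in 4 tags). Every NK tag was above every keratin-positive tag, with a ratio of 0.31 (0.23 to 0.43). The ratio over T was 0.52 (0.42 to 0.64). Without tag U2 and with all T barcodes counted it was 0.79, and the intervals met. Mcm5 was lower than in T barcodes in 6 of 6 tags, with 14.4 to 23.9 CPM in keratin-positive and 23.2 to 92.9 CPM in T barcodes and a ratio of 0.59 (0.44 to 0.81). With keratin-bearing T barcodes left in, the Mcm5 ratio was 0.78 and its intervals overlapped. Mcm3 and Mcm4 had ratios of 0.58 (0.45 to 0.74) and 0.54 (0.44 to 0.68) over T. Over tags, with keratin-bearing T barcodes set aside, Mcm3 to Mcm6 passed over T (edgeR, adjusted p = 0.0210, 0.00436, 0.0256 and 0.00343). Mcm2 and Mcm7 did not (adjusted p = 0.103 and 0.418). As ruled, Mcm3 and Mcm5 did not pass over T either (adjusted p = 0.0555 and 0.216). Over NK without keratin-bearing barcodes, Mcm3 and Mcm6 alone passed (adjusted p = 0.0236 and 0.00110), and as ruled Mcm6 alone did (0.0129). Rrm2, the regulated subunit of ribonucleotide reductase, had a ratio of 0.57 over T (0.44 to 0.75) and of 1.59 over macrophages (1.07 to 2.45).

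Other S phase genes differed less. Pcna, the sliding clamp of DNA polymerases, had a ratio of 1.03 over T (0.77 to 1.42), and Tyms, the thymidylate synthase, the same ratio of 1.03 (0.80 to 1.35). Hells, a chromatin remodeller, was higher in keratin-positive barcodes than in NK, at 72.2 and 32.7 CPM and a ratio of 2.21 (1.31 to 4.04), and 2.55 times the macrophage level (1.91 to 3.49). With the 8 keratin-bearing NK barcodes left in, the ratio over NK was 1.21 and the intervals overlapped. Its ratio over T was 1.10 (0.89 to 1.36). Cdc6, which loads the helicase, had 4.67 CPM in keratin-positive barcodes and 3 to 13 UMIs in each immune class, too few for a comparison.

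The quotient of S phase to mitotic UMIs was lowest in keratin-positive barcodes. The S list summed to 415 CPM and the mitotic list to 1810 CPM in keratin-positive barcodes, which gives 0.229 (0.227 to 0.231). With the classes as ruled, it was 0.426 in NK, 0.340 in T and 0.376 in macrophage barcodes. Without keratin-bearing barcodes these were 0.406, 0.405 and 0.455. By tag, keratin-positive barcodes ran from 0.194 in D4 to 0.261 in D0. T barcodes without the keratin-bearing ones ran from 0.309 in D0 to 0.708 in D4, above the keratin-positive value of the same tag in 6 of 6 tags. NK tag U2 was at 0.240 and macrophage tag U2 at 0.279, inside or close to the keratin-positive range, and with barcodes of 1000 or more genes alone the T value was 0.299.

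Both E-type cyclins, which activate Cdk2 at the start of S phase, were rare. Ccne1 had 6.88 CPM in keratin-positive barcodes, 9.34 in NK, 14.2 in T and 6.76 CPM in macrophage barcodes, and its ratio over T was 0.48 (0.31 to 0.80). Ccne2 had 4.94 CPM in keratin-positive barcodes and 14.01, 8.50 and 6.14 CPM in the immune classes, on 6 to 12 UMIs each.

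Of the 41 genes, Ccnd1 had the highest ratio over both NK and T barcodes with keratin-bearing barcodes set aside. As ruled, Ccnb1 was above it over NK (3.31 and 3.21). Ccnd1 had 496, 504, 596, 535, 607 and 536 CPM in keratin-positive barcodes when the tags ran U2 to U4 and then D0, D1 and D4, against 71.6, 56.7, 7.75, 39.4, 22.5 and 0 CPM in T barcodes of the same tags, where the 0 UMIs of D4 allow up to 68.6 CPM by the exact Poisson limit. The tags did not overlap, and the ratio over all barcodes was 11.2 (8.83 to 14.5). Over NK barcodes, where only 4 Ccnd1 UMIs were counted, the ratio was 56.2 (22.0 to 206), and over macrophages it was 2.85 (2.54 to 3.20). With keratin-bearing barcodes left in, the ratios were 2.55 over T, 3.21 over NK and 1.93 over macrophages, so the size of the difference, but not its direction, rests on those barcodes. Ccnd2 and Ccnd3 were lower in keratin-positive barcodes than in T barcodes in 6 of 6 tags, with ratios of 0.54 (0.48 to 0.60) and 0.46 (0.39 to 0.55). Ccnd2 had 133 to 166 CPM by tag in keratin-positive and 194 to 353 CPM in T barcodes, with no overlap.

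Ccnd1 made up 73.9% of D-type cyclin UMIs in keratin-positive barcodes (72.4% to 75.7% by tag), against 3.45% in NK (0.95% to 8.59%), 11.5% in T (8.99% to 14.4%) and 54.1% in macrophage barcodes (49.8% to 58.3%). Ccnd2 made up 69.8% in NK and 62.6% in T barcodes. Keratin-positive barcodes thus held mostly Ccnd1 among their D-type cyclin UMIs, and NK and T barcodes mostly Ccnd2. With keratin-bearing barcodes left in, the Ccnd1 percent was 41.1 in NK, 38.4 in T and 61.0 in macrophage barcodes. Of the kinases that D-type cyclins bind, Cdk4 had a median of 251 CPM by tag in keratin-positive barcodes (220.3 to 281), against 70.6 CPM in T barcodes (55.1 to 89.5), with no overlap. Its ratio was 3.41 (2.40 to 5.02) over NK, 3.23 (2.67 to 3.94) over T and 3.27 (2.74 to 3.94) over macrophages, or 2.01, 1.89 and 2.06 as ruled. Cdk6 was lower than in T barcodes, with a ratio of 0.66 (0.57 to 0.77), and 1.82 times the macrophage level (1.46 to 2.30).

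**Figure D4:**
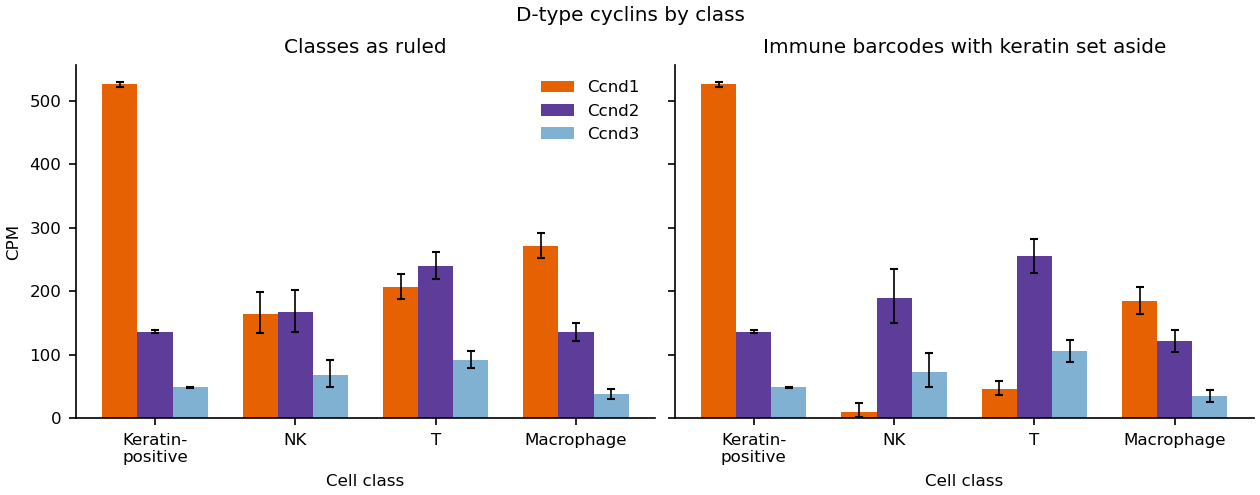
Summed CPM of Ccnd1, Ccnd2 and Ccnd3 by class, with the classes as ruled (left) and with keratin-bearing immune barcodes set aside (right). Bars are CPM and whiskers exact Poisson 95% intervals. Ccnd1 stands at 525 CPM in keratin-positive barcodes in both panels, and in T barcodes at 206 CPM on the left and 46.8 CPM on the right.

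Within the keratin-positive class, mitotic UMIs were concentrated in a minority of barcodes. In 4933 keratin-positive barcodes thinned to 10000 UMIs, the median barcode held 1 mitotic UMI, the 75th percentile was 14 and the 90th 58. For the S list the median was 1, the 75th percentile 4 and the 90th 11. The top 25% by mitotic UMIs, called mitotic-high, held 92.0% of mitotic UMIs. The top 25% by S phase UMIs, called S-high and widened by ties to 28.7% of barcodes, held 79.7% of S phase UMIs. At the limit or 1 UMI below it lay 52 barcodes for the mitotic list and 560 for the S list, so S-high is a range of a continuous score.

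Most barcodes high in one list were high in the other. Of the 1415 S-high barcodes, 68.0% were also mitotic-high (65.5% to 70.4%), against 7.79% of the 3518 others (6.92% to 8.72%). By tag these shares ran from 59.5% in D4 to 73.5% in D0 among S-high barcodes, and from 5.56% in D4 to 10.8% in U4 among the others. With the top 10% of each list in place of the top 25%, they were 16.8% and 9.45%, so the barcodes at the extremes of both lists overlapped little. There were 274 barcodes high in the mitotic list only, 453 in the S list only, 962 in both and 3244 in neither. Their median UMIs before thinning were 29404, 28585, 34974.5 and 23487, and the part of depth, or of 2 cells in 1 droplet, in the barcodes high in both was not tested.

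The lists separated when mitotic-only and S-only barcodes were compared, with each gene left out of the sum that chose the barcodes. This is a description, since the rest of the gene's own list chose them. All 20 mitotic genes were higher in mitotic-only barcodes by their intervals and in 6 of 6 tags, against 5.77% higher and 7.29% lower among all genes tested. Their ratios ran from 3.95 for Cdk1 (3.47 to 4.50) to 35.2 for Plk1 (18.2 to 78.0), the polo-like kinase of mitotic entry, with a median of 10.2, where the median of all genes was 0.97. Ccnb1 had 199 CPM in mitotic-only barcodes and 6.61 CPM in S-only barcodes, a ratio of 30.1 (20.7 to 45.4). Nusap1, a spindle protein, had 132 and 4.60 CPM in the same order, and Cenpf 479 and 17.5 CPM. Top2a, Cdk1 and Ccna2, the cyclin of S phase and G2, kept more of their level in S-only barcodes: Top2a had 379 and 78.7 CPM (ratio 4.81) and Ccna2 103 and 16.8 CPM (ratio 6.13). Compared with barcodes high in neither list, Ccna2 was 14.3 times higher in S-only barcodes, and Mki67 3.42 times.

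Of the 14 S phase genes, 11 were lower in mitotic-only barcodes by their intervals, and Gins2, Tyms and Rrm1 overlapped. Rrm2, 1 of the 11, was at 1.20 (0.73 to 1.95) when barcodes were thinned to 5000 UMIs. Cdc6 had the lowest ratio, 0.044 (0.005 to 0.166), with 2 UMIs in mitotic-only and 74 in S-only barcodes. The 6 Mcm genes had ratios of 0.26 for Mcm6 to 0.45 for Mcm7. Tyms (0.84) and Rrm1 (1.17, 0.95 to 1.43) were about as high in mitotic-only as in S-only barcodes, and Rrm1, the large subunit of ribonucleotide reductase, was 6.27 times the level of barcodes high in neither list there. Ccne1 and Ccne2 followed the S list, with ratios of 0.16 and 0.10 on 5 and 4 UMIs in mitotic-only barcodes.

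The 5 genes of G1 differed less between mitotic-only and S-only barcodes. Ccnd1 had 718 CPM in mitotic-only, 721 in S-only, 667 in double-high and 371 CPM in the remaining barcodes. Its ratio of mitotic-only over S-only barcodes was 0.996 (0.941 to 1.05), and its level was 1.94 times the level of the barcodes high in neither list in both. Ccnd2 had 126, 150.8, 105 and 145 CPM in the same order. Cdk4 was lower in mitotic-only than S-only barcodes (250.4 and 316 CPM, ratio 0.79) in 6 of 6 tags, and Ccnd3 had a ratio of 0.71. At 5000 UMIs the Cdk4 ratio was 1.005, and with the top 10% that of Ccnd2 was 1.02.

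**Figure D5:**
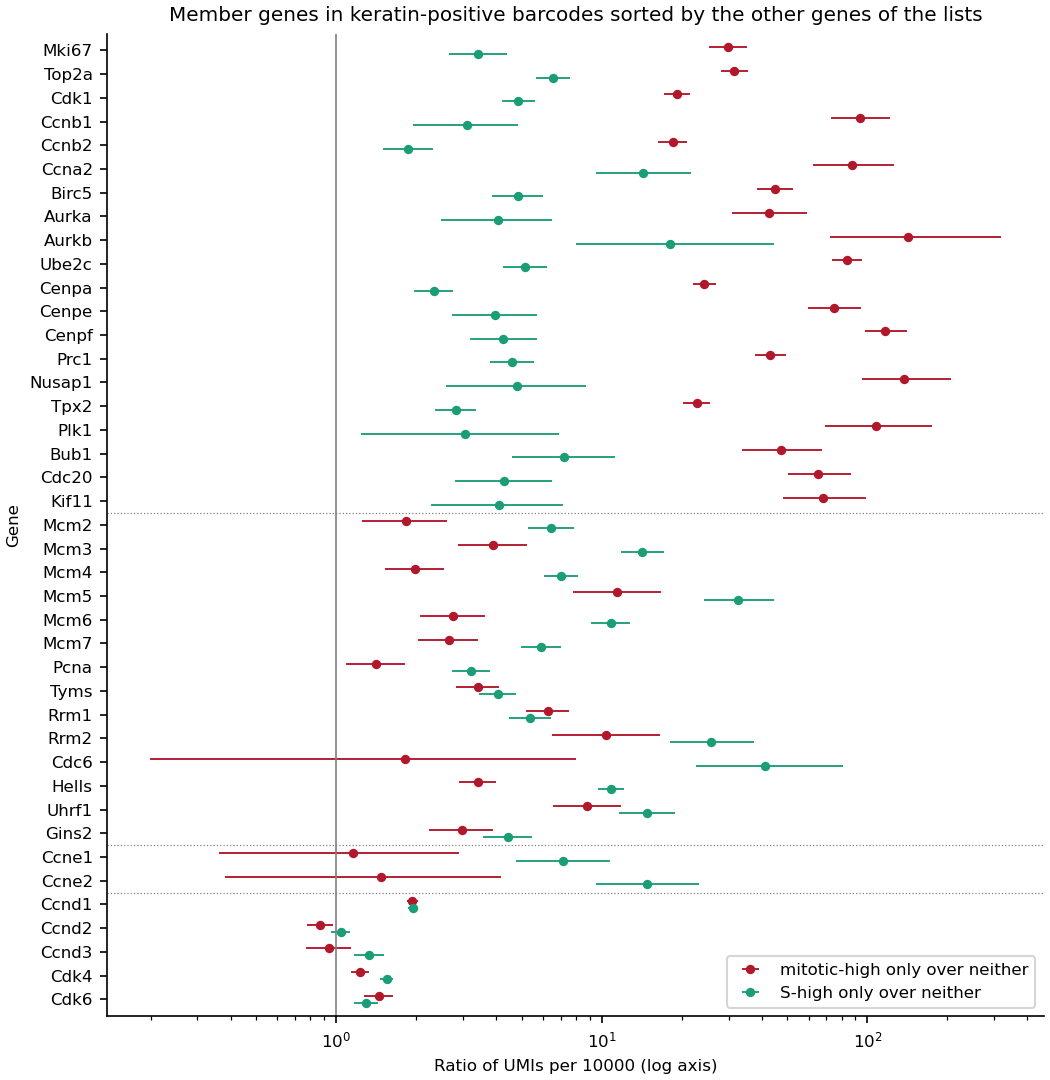
Ratio of CPM in mitotic-only (red) and in S-only (green) keratin-positive barcodes over barcodes high in neither list, at 10000 UMIs, for each of the 41 genes on a log axis. Lines are exact 95% intervals, dotted lines part the 4 lists and the grey line marks a ratio of 1. Mitotic genes lie between 18.5 (Ccnb2) and 142 (Aurkb) in red, S phase genes between 3.22 (Pcna) and 41.1 (Cdc6) in green, and genes of G1 between 0.87 (Ccnd2) and 1.94 (Ccnd1) over both colours.

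Across the same 4933 barcodes, which share 1 library and were brought to 1 depth, members of the mitotic list varied together. As a description, Pearson's correlation of log counts had a median of 0.60 over the 190 pairs of mitotic genes, with Ube2c and Prc1 highest at 0.84. It was 0.27 over 91 pairs of S phase genes, which have fewer UMIs, and 0.22 over 280 pairs between the lists, with Top2a and Rrm1 highest at 0.49. Ccnd1 and Birc5, the survivin gene, reached 0.30, the highest value between a gene of G1 and a mitotic gene.

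The promoters of both lists were then read for motifs. RefSeq promoters of GRCm38.p6, which run from 250 bases before to 50 after a start, matched 33 of the 41 genes with 37 promoters. All motifs were searched on both strands. The CHR element was searched as TTTGAA, and a promoter with its other known form, written TTCGAA, counted as well. The CCAAT box was searched by the letters of its name. The E2F element was searched in 4 forms, of which the first was TTTCGCG. The second form of the element, with other letters at its centre, was TTTGGCG. The third form that counted as a match to the element was TTTCCCG. The last form, which completed the set used for this element, was TTTGCCG. CHR letters were found in 14 of 18 mitotic promoters (77.8%), 2 of 14 S phase promoters (14.3%) and 19.2% of all 32851 promoters. CCAAT was in 16 of 18 mitotic (88.9%), 11 of 14 S phase (78.6%) and 37.4% of all promoters. E2F letters were in 3 of 18 mitotic (16.7%), 7 of 14 S phase (50%) and 6.70% of all promoters. The lists thus differed in the CHR and E2F letters and shared CCAAT. A match describes the letters and is not a binding site, and no match says nothing of the factor. Ccnb1, Birc5, Cenpe and Nusap1 lacked the CHR letters in this window, although Ccnb1 and Nusap1 were among the genes with the largest mitotic-only ratios. Cenpa, whose UMIs in T barcodes lay mostly without another mitotic gene, held both CHR and CCAAT.

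Stretches of 100 bases from 4 mitotic promoters are shown with the CHR and CCAAT letters in capitals on either strand, since the lists differed in the CHR letters. They are the first genes of the list with both motifs in 1 such stretch that held few bases of annotated exons. Their mitotic-only ratios, 8.72 for Mki67, 4.81 for Top2a, 3.95 for Cdk1 and 9.89 for Ccnb2, lay below the median of the list. They come from chr7:135716430-135716529 (Mki67), chr11:99024190-99024289 (Top2a), chr10:69352913-69353012 (Cdk1) and chr9:70421625-70421724 (Ccnb2), all on the minus strand of GRCm38.p6 and written 5′ to 3′ along the gene.
Mki67: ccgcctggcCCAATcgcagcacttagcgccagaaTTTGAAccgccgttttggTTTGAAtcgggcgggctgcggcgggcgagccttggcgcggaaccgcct
Top2a: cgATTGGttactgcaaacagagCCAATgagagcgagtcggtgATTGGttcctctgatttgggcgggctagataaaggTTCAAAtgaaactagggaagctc
Cdk1: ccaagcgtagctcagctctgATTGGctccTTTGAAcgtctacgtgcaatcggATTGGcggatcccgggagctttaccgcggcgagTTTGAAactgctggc
Ccnb2: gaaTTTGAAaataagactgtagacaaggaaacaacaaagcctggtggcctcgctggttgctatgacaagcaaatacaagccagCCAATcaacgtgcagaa

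The same length of 4 S phase promoters is shown with the E2F letters in capitals, chosen in the same way. They come from chr8:75109359-75109458 (Mcm5), chr11:98908011-98908110 (Cdc6) and chr19:38930840-38930939 (Hells) on the plus strand, and chr1:128359706-128359805 (Mcm6) on the minus strand of GRCm38.p6.
Mcm5: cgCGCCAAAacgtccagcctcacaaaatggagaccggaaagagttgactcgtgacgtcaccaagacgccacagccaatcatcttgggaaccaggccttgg
Mcm6: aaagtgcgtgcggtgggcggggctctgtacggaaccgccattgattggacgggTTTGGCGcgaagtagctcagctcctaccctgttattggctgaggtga
Cdc6: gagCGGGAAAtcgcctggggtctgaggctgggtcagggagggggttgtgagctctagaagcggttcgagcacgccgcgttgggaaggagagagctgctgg
Hells: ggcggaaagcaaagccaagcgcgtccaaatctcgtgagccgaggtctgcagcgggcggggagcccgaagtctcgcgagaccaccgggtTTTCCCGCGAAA

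Other genes of the same pathways were compared inside the keratin-positive class, against the 5.77% higher and 7.29% lower of all genes. Of 40 other mitotic genes, all 40 were higher in mitotic-only than in S-only barcodes by their intervals. Of 32 other S phase genes, 13 were lower, 2 higher and 17 overlapped. Among the 7097 genes outside the 41 with at least 500 UMIs after thinning, ranked by their ratio to barcodes high in neither list, those with the largest ratio in mitotic-only barcodes were Aspm, a spindle pole protein, at 145, Knl1, a kinetochore scaffold, at 87.4, and Depdc1a at 82.0. In S-only barcodes they were Rad51ap1, a factor of recombination repair, at 40.2, Pclaf, which binds Pcna, at 27.1, and Pbk, a mitotic kinase, at 23.9. Pbk was also 65.1 times higher in mitotic-only barcodes.

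Between classes the other mitotic genes gave counts in the same direction as the 20 over macrophages and NK barcodes. As ruled, 12 of 40 were higher and 1 lower over NK, 11 higher and 4 lower over T, and 34 higher and 1 lower over macrophages, beside all-gene shares of 14.8% and 14.3%, 19.9% and 24.1%, and 22.8% and 21.1%. The 32 other S phase genes gave 1 higher and 5 lower over NK, 4 and 9 over T, not far from the all-gene shares, and 18 and 1 over macrophages. Inhibitors of the cycle, given with keratin-bearing immune barcodes set aside, differed from one another. Cdkn2a, an inhibitor locus whose transcripts were counted together, was at 359.6 CPM in keratin-positive barcodes, against 32.7 in NK, 44.6 in T and 29.5 CPM in macrophage barcodes. Cdkn2b, its neighbour, was at 108 CPM, against 4.67, 17.7 and 6.76 CPM in the same classes. Cdkn1a, the p21 gene, was at 51.0 CPM in keratin-positive and 717 CPM in macrophage barcodes. In keratin-positive barcodes Cdkn2d was 3.54 times higher in mitotic-only barcodes than in those high in neither list (3.01 to 4.14) and 0.99 times in S-only barcodes. Rb1, the retinoblastoma gene, was lower than in those barcodes in both, at 0.62 and 0.49 times, while its relative Rbl1 was 4.88 and 5.73 times as high.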

How the data were processed

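One expression library and one antibody-tag library were read from a single pool of tumour cells. The deposited matrix gives raw UMI counts per gene and barcode, and its header names software version 3.1.0. Cell Ranger and the build mm10 are named in the submitters' processing notes, while the annotation and the use of strand in counting are not given in the sources used here. In GENCODE M21, 18 of the 41 genes overlap a gene on the opposite strand and 6 one on the same strand, so reads of such neighbours may be shared.

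Of 9747 barcodes, 8784 had at least 500 genes and under 15% mitochondrial UMIs. Tags were called with HTODemux (Seurat 5.3.0, R 4.3.3, quantile 0.99, seed 42). The 865 barcodes with more than 1 tag were removed, and 5590 with 1 tag and 2329 with none were kept, 7919 in all. Doublets inside 1 tag or with an untagged cell stay in. A further 51 barcodes met more than 1 class rule and were set aside, and 1409 met none.

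Thinning drew UMIs without replacement (numpy 2.4.6). CPM is UMIs over all gene UMIs of the class and times 1000000. It is not divided by gene length, since the libraries count 3′ ends, and different genes are not ranked by level. Intervals are exact 95% intervals (Poisson, Clopper-Pearson, or conditional for a ratio of counts; scipy 1.17.1), and genes needed 10 UMIs over both groups. Tags entered with at least 20 barcodes of a class. The test over tags (edgeR 4.0.16, TMM scaling, filterByExpr, tag as block) was added after the data were seen. The tags share 1 lane. The scripts were tested on simulated data. All 41 genes enter the counts and are drawn in the figures, but Aurka, Bub1 and Uhrf1 are not described one by one. In the other gene lists, the 3 genes with the most UMIs were Cks2, Smc4 and Cks1b (mitotic), Dut, Slbp and Orc6 (S phase), and Cdkn2a, Cdkn2b and Cdkn2c (inhibitors). Of these, Cdkn2a and Cdkn2b alone are described. The other genes named from those lists were chosen by rank or after their values were seen. The members and all lists were chosen with earlier results of these data known. Gene UMIs summed to 139545308 in keratin-positive, 635346 in NK, 2108877 in T and 2725811 in macrophage barcodes.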

Additional observations from a re-analysis of the deposited data

Results flagged for a closer look

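Of 138 groups of 4 to 6 tags, which cover each gene, the mitotic and S shares, the summed CPM of both lists and their quotient in keratin-positive, T and macrophage barcodes, 8 held a tag far from the others by Dixon's criterion, and chance alone flags about 1 in 20 groups. Values are CPM in the classes as ruled, keratin-bearing immune barcodes included. In keratin-positive barcodes Ccnd2 was at 166 CPM in tag U4, with the other 5 tags at 133 to 144 CPM. In T barcodes of U2, Cdk1 was at 149.4 CPM (others 27.1 to 72.1), Prc1 at 181 CPM (others 57.2 to 101) and Cdc6 at 14.5 CPM (others 0 to 3.81). In T barcodes of D4, the smallest T group with 31 barcodes, Mcm5 was at 90.1 CPM (others 17.2 to 31.0) and Ccne2 at 36.1 CPM (others 1.91 to 10.8). There 3 UMIs amounted to 54.1 CPM, so the Ccne2 value rests on fewer than 3 UMIs. Mcm4 in T barcodes of D0 was low at 24.8 CPM (others 51.5 to 65.1). Kif11 in macrophage barcodes of D1 was at 26.8 CPM, with the other 4 tags at 6.38 to 10.3 CPM.

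With keratin-bearing T barcodes set aside, Cdk1 in U2 was at 73.8 CPM beside 31.0 to 74.4 CPM in the other tags, so that value stood apart only with those barcodes included. Mcm5 in D4 was at 92.9 CPM without them.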

How the results depend on the processing

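Of 398 values of the main results under another setting, 304 stayed within their error or within 1.5 times their count and 94 moved. The cause was not tested. Percents are the mitotic share, then the S share. Thinned to 500 UMIs, keratin-positive barcodes gave 16.9% and 2.59%, T 9.32% and 2.19%, macrophages 7.07% and 2.78%. Thinned to 2000 UMIs they gave 28.9% and 16.5%, T 33.9% and 29.4%, macrophages 16.1% and 11.9%, and the NK S share was 22.8%. At 1 or more UMIs the shares were 33.4% and 24.1% in keratin-positive, 37.8% and 24.4% in NK, 30.1% and 25.3% in T, and 23.3% and 20% in macrophage barcodes. At 3 or more UMIs they were 19.1% and 2.67% in keratin-positive and 8.18% and 3.36% in T barcodes, with a mitotic share of 10.1% in NK and an S share of 3.08% in macrophages. Barcodes of 2000 or more UMIs, a setting chosen after seeing the data, gave 23.8% and 20.6% in T. Those of 1000 or more but under 2000 UMIs gave 61.1% and 19.4% in 36 keratin-positive barcodes, 6.64% and 2.97% in T, 6.90% and 13.8% in macrophages, and an S share of 0 in 18 NK barcodes, which allows up to 18.5%. With 1000 or more genes T gave 29.1% and 26.1%, an S over mitotic quotient of 0.299, a Ccnd1 share of 51.1%, and 2 members higher and 20 lower in keratin-positive over T.

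With multi-tag barcodes kept, S over mitotic was 0.225 in keratin-positive, 0.363 in NK, 0.294 in T and 0.299 in macrophages, the Ccnd1 share was 55.3% in NK, 52.8% in T and 64.4% in macrophages, and 11 members were lower over NK. With barcodes of several classes kept, S over mitotic was 0.339 in NK and 0.336 in macrophages, and the Ccnd1 share 47.8% and 64.8%. Without keratin-bearing immune barcodes (chosen after seeing the data), S over mitotic was 0.405 in T and 0.455 in macrophages, the Ccnd1 share 3.45% in NK, 11.5% in T and 54.1% in macrophages, and 2 members were lower over macrophages. With tagged barcodes only, keratin-positive barcodes gave 25.4% mitotic, S over mitotic of 0.214, and 10.2% mitotic-high among barcodes that were not S-high. Stricter class rules gave 28.5% and 9.34%, S over mitotic of 0.218, a Ccnd1 share of 76.8%, and mitotic-high shares of 60.5% among S-high and 10.8% among other barcodes. These shares were 16.8% and 9.45% with the top 10%, and 60.9% and 8.73% at 5000 UMIs. The mean of per-barcode CPM gave 22 members higher over T and 1 lower over macrophages. Asking for a ratio of 1.5 as well left 4 lower over NK and 7 higher over T.

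Leaving out 1 tag at a time moved the mitotic share within 21.8% to 23.5% in keratin-positive, 16.9% to 18.1% in NK, 10.9% to 15.4% in T and 8.77% to 11.1% in macrophages, and the S share within 7.45% to 8.49%, 3.90% to 8.42%, 7.01% to 11.4% and 7.02% to 7.63%. S over mitotic stayed within 0.228 to 0.238 in keratin-positive, 0.328 to 0.489 in NK, 0.318 to 0.390 in T and 0.366 to 0.403 in macrophages. The Ccnd1 share ranged over 73.2% to 74.6%, 36.0% to 45.4%, 31.0% to 40.6% and 60.0% to 61.8%. Members higher numbered 7 to 14 over NK, 6 to 20 over T and 27 to 30 over macrophages, and members lower 5 to 7, 6 to 12 and 0. Mitotic-high shares were 68.0% to 70.9% among S-high and 7.82% to 9.88% among other barcodes.

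A ratio was counted as reversed when it moved to the other side of 1 from its call, whether or not it was called there. Of 2214 single-gene ratios between classes, 7 reversed in this sense, all over T with 1000 or more genes: Ccna2 0.83, Birc5 0.91, Cenpe 0.91, Cenpf 0.99, Prc1 0.80, Tpx2 0.91 and Cdc20 0.9997. Of 533 ratios of mitotic-only over S-only barcodes, 3 did so, all with intervals that included 1. They were Ccnd2 at 1.02 (0.894 to 1.16) with the top 10%, and Rrm2 at 1.20 (0.73 to 1.95) and Cdk4 at 1.005 (0.891 to 1.13) at 5000 UMIs. Paired by tag, with the tag as a replicate block in edgeR (chosen after seeing the data), 1 member was lower over NK and 5 were lower over T. Arms could not be paired or compared, since no label gives an arm to a tag.

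NK barcodes number 121 and T barcodes are shallow, and free RNA and mixed droplets cannot be told apart from low expression. A single pool gives no error between samples of an arm.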

Other observations

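Within T barcodes, 3 groups set after the data were seen differed in values. With keratin-bearing barcodes set aside and at 1000 UMIs, Foxp3-positive T barcodes were mitotic in 19.3% (10.0% to 31.9%, 11 of 57), T barcodes with Cd8a or Cd8b1 UMIs in 14.4% (10.6% to 19.004%, 42 of 291), and the remaining T barcodes in 9.09% (6.13% to 12.9%, 28 of 308). Their S shares were 12.3%, 11.7% and 6.82%, and the intervals of the 3 groups overlapped.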
